A study of Mus musculus with 2 samples.

Results

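The 10 genes described here encode the vascular endothelial growth factor (VEGF) ligands Vegfa, Vegfb and Vegfc, the VEGF receptors Kdr, Flt1 and Flt4, the angiopoietins Angpt1 and Angpt2, the angiopoietin receptor Tek and its relative Tie1. They were chosen by name, and all 10 were among the 27998 genes of both libraries. Single-cell RNA sequencing (10x Chromium, 3′ ends) was performed on the ocular area of 26-somite C57BL/6J mouse embryos, with 1 library from 1 wild-type (WT) embryo and 1 library from 1 Mab21l1-null (KO) embryo. Both embryos carried no other labelled allele or treatment, and each library held the pair of eye regions of its embryo. With 1 embryo for each genotype there was no replicate, so no test was made between genotypes, and every interval below is a 95% interval that covers counting error only. The library labelled WT held 1745 barcodes, of which 1680 cells passed the filters with 41880035 unique molecular identifiers (UMIs, each standing for 1 captured RNA molecule). The library labelled KO held 2458 barcodes, of which 2404 cells passed with 52430844 UMIs.

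VEGF receptors are tyrosine kinases of the blood and lymphatic vessel wall. Vegfa signals through Kdr, which drives the growth and survival of endothelial cells, whereas Flt1 binds the same ligand tightly and limits its supply. Vegfb binds Flt1, and Vegfc binds Flt4 and Kdr. Angpt1 activates Tek and steadies vessels, Angpt2 modulates the same receptor, and Tie1 is a partner of Tek without a well-known ligand of its own. In the embryonic head these genes are known from the vessel plexus that forms around the optic cup, while the tissues that the vessels surround supply ligand.

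The sequences just upstream of 3 receptor genes are shown because these genes shared 1 cell class in the data below. They were taken from RefSeq (build GRCm38.p6), which held a promoter window for 8 of the 10 genes, and stop at the first annotated base of the gene. The promoter of Kdr spanned chr5:75978459-75978705 (minus strand), that of Flt1 chr5:147726012-147726261 (minus strand) and that of Tek chr4:94739039-94739288 (plus strand). Capitals mark AGGAAG or CCGGAA, the core letters of ETS factor motifs, searched on both strands.
Kdr: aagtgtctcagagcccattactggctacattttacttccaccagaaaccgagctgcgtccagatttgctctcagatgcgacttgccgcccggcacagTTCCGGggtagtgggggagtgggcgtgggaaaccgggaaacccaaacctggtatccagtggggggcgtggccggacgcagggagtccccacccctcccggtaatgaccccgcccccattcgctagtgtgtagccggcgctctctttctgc
Flt1: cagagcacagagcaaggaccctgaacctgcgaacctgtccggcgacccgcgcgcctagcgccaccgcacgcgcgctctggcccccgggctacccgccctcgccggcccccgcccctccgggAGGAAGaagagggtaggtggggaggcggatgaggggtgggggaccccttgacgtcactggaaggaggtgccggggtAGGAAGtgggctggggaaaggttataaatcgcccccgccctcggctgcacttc
Tek: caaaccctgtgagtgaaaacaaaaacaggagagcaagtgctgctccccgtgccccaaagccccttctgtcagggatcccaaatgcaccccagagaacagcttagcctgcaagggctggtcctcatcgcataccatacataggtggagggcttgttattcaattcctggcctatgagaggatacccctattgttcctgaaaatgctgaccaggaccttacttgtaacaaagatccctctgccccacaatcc
Kdr held 1 match, Flt1 held 2 matches and Tek held 0. The windows of Tie1 and Flt4 reached into transcripts of the GENCODE annotation and are not printed. Tie1 held 1 match in its 250 bases and Flt4 held 0, and the windows of the 3 VEGF ligands held 0. Among all 32851 RefSeq promoter windows, 38.2% held at least 1 of these letter strings, so a match was common and is only a description of the letters.

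Cells were clustered without the 10 genes and without the pathway lists used below, and clusters were named from marker genes. The endothelium-like class was 1 cluster, with 66 cells labelled WT and 102 cells labelled KO, in which all 11 endothelial markers stood at least 2-fold above the other cells. The other classes held, for WT and KO in this order, 452 and 750 optic vesicle-like cells, 380 and 456 neural ectoderm-like cells, 530 and 804 mesenchyme-like cells, 57 and 43 ectoderm-like cells, 30 and 29 neural crest-like cells, and 38 and 52 erythrocyte-like cells. Mab21l1 had 849 UMIs (20.3 UMIs per 1000000, CPM) in the library labelled WT and 1706 UMIs (32.5 CPM) in the library labelled KO. Summed over all kept cells this gene therefore did not check the labels, and whether its reads lay outside the deleted part was not tested. The paper lists Mab21l1 among the genes lower in the null cells of its ectoderm cluster. No value of this gene by class is given here. The 2 libraries shared 15 barcode sequences. Hbb-y, an embryonic globin of red cells, was higher in the library labelled KO in each named class, at 122 CPM (WT) and 272 CPM (KO) in mesenchyme-like cells and at 130 CPM and 398 CPM in endothelium-like cells, where 1 cell labelled KO held 194 of 993 UMIs. A group of 21 endothelium-like cells led by Actb, Rpgrip1 and Slc39a1 came almost wholly from the library labelled WT (20 cells against 1 cell), and neural ectoderm-like cluster 5 (161 WT and 57 KO cells) and mesenchyme-like cluster 8 (80 and 21 cells) were led by some of the same genes. Mesenchyme-like cells lay in cluster 0 (60.4% of those labelled WT and 52.1% of those labelled KO), cluster 4 (15.3% and 35.3%), cluster 8 (15.1% and 2.61%) and 2 small clusters. Results are therefore also given without those endothelium-like cells or by cluster. The part of these differences in the results below was not tested.

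Most UMIs of the 3 VEGF ligands lay outside the endothelium-like class. Vegfa (ENSMUSG00000023951, chr17:46016993-46032369, GRCm38) was at low levels in every class. In optic vesicle-like cells it had 121 UMIs, or 7.68 CPM (6.38 to 9.18), in the library labelled WT and 143 UMIs, or 6.60 CPM (5.56 to 7.78), in the library labelled KO. In mesenchyme-like cells it was at 6.70 CPM (WT) and 6.60 CPM (KO), and in neural ectoderm-like cells at 4.58 CPM and 4.26 CPM. Its neighbouring classes in the order of levels had overlapping intervals in both libraries, but some classes further apart in that order did not. The optic vesicle-like interval lay above that of endothelium-like cells in both libraries. It lay above that of neural ectoderm-like cells (3.27 to 6.24) in the library labelled WT and overlapped it (3.06 to 5.78) in the library labelled KO. Endothelium-like cells held 5 UMIs in each library, 2.55 CPM (0.829 to 5.96) and 2.0 CPM (0.650 to 4.67). Erythrocyte-like cells, which should lack the gene, held 0.730 CPM (WT) and 1.58 CPM (KO), with intervals that overlapped those of the endothelium-like cells. Vegfa over endothelium-like cells was thus 0.419 times (0.135 to 0.992) the level of all other cells in the library labelled WT and 0.353 times (0.114 to 0.834) in the library labelled KO.

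**Figure D1:**
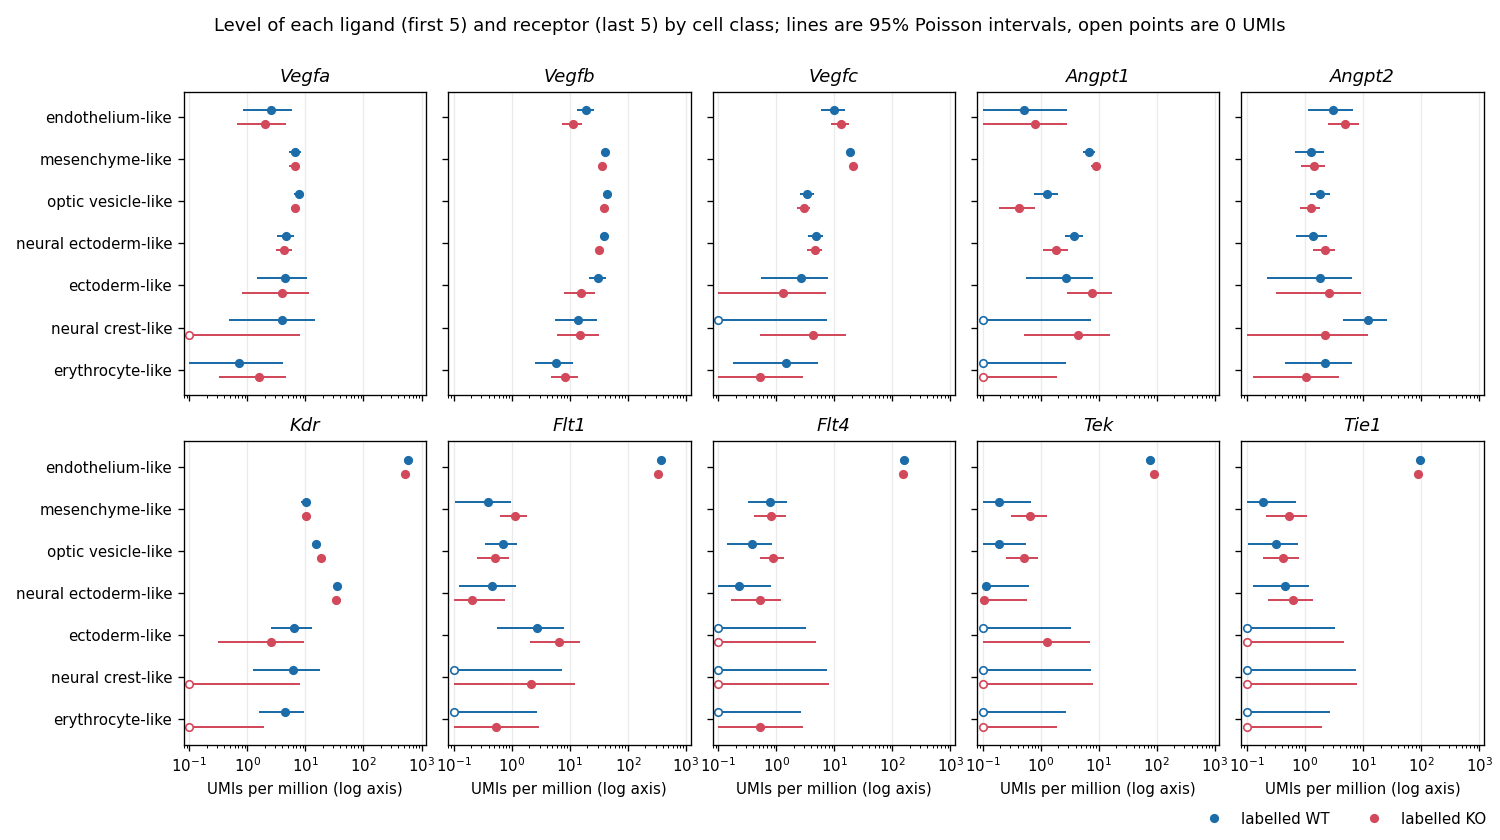
Level of each of the 10 genes in UMIs per 1000000 (x axes, log scale) for the 7 named cell classes (rows), with blue points for the library labelled WT, red points for the library labelled KO, lines for 95% Poisson intervals and open points at the left edge for 0 UMIs. The 5 receptors stand far to the right in endothelium-like cells, and Kdr also stands at 35.0 and 33.7 CPM in neural ectoderm-like cells.

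Vegfb (ENSMUSG00000024962, chr19:6982473-6987651) was broad. Optic vesicle-like cells held 44.3 CPM (41.1 to 47.7) in the library labelled WT and 39.1 CPM (36.5 to 41.8) in the library labelled KO. It was at 40.7 CPM (WT) and 35.9 CPM (KO) in mesenchyme-like cells. Endothelium-like cells held less, with 37 UMIs or 18.9 CPM (13.3 to 26.0) and 28 UMIs or 11.2 CPM (7.45 to 16.2). The endothelial level was 0.489 times (0.343 to 0.677) and 0.325 times (0.215 to 0.471) that of all other cells. Erythrocyte-like cells held 5.84 CPM (WT) and 8.40 CPM (KO), apart from the endothelium-like interval in the library labelled WT and overlapping it in the library labelled KO.

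Vegfc (ENSMUSG00000031520, chr8:54077606-54187096) was a gene of the mesenchyme-like cells, which held 59.1% (WT) and 61.4% (KO) of its UMIs. There it had 194 UMIs or 18.6 CPM (16.1 to 21.4) and 285 UMIs or 21.1 CPM (18.8 to 23.7). Endothelium-like cells came second, at 9.70 CPM (5.84 to 15.1) and 12.8 CPM (8.76 to 18.1), and the intervals of the 2 classes did not overlap in either library. The endothelium-like level was 1.25 times (0.744 to 1.99) and 1.48 times (1.0 to 2.12) that of all other cells. Optic vesicle-like cells (3.37 and 2.96 CPM) and neural ectoderm-like cells (4.81 and 4.67 CPM) were lower.

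Of the angiopoietins, Angpt1 (ENSMUSG00000022309, chr15:42424723-42676977) was also highest in mesenchyme-like cells among the large classes, at 6.80 CPM (5.31 to 8.58) and 9.05 CPM (7.52 to 10.8). Its exons overlap 1 other annotated gene, so some UMIs could belong to that gene. Endothelium-like cells, which carry its receptor, held 1 UMI (WT) and 2 UMIs (KO). Angpt2 (ENSMUSG00000031465, chr8:18690263-18741562) had 75 UMIs in the whole library labelled WT and 91 UMIs in the library labelled KO. It was at 3.06 CPM (1.12 to 6.67) and 4.80 CPM (2.48 to 8.39) in endothelium-like cells, and erythrocyte-like cells, the background here, held 2.19 CPM and 1.05 CPM. Neural crest-like cells labelled WT held the highest level, 12.04 CPM (4.42 to 26.2) from 6 UMIs in 6 of 30 cells, against 1 UMI in the cells labelled KO. Of the 12 endothelium-like UMIs labelled KO, 4 lay in 1 cell. Neighbouring classes in the order of its levels had overlapping intervals in both libraries. The endothelium-like level was 3.04 times (1.51 to 5.61) that of all other cells in the library labelled KO and 1.77 times (0.629 to 4.06) in the library labelled WT.

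Within the mesenchyme-like class the ligands differed by cluster. Angpt1 was at 12.9 CPM (75 UMIs) in cluster 4, with Prrx1 and Col1a2 among its leading genes, and at 7.70 CPM (108 UMIs) in cluster 0, led by Cxcl12 and Col3a1. It was at 2.39 CPM in cluster 12, which was led by Six2 and Pdgfrb among others. Vegfc was at 22.0 CPM in cluster 0, 19.1 CPM in cluster 4 and 13.9 CPM in cluster 12. The highest level of both genes lay in cluster 13, a set of 59 cells (12 WT and 47 KO) that stayed unnamed, with Cga and Dkk2 among its leading genes. There Vegfc was at 41.9 CPM and Angpt1 at 38.5 CPM, both libraries summed, and Kdr reached 50.9 CPM. Flt1 had 2 UMIs in these cells, and Flt4, Tek and Tie1 had 0. Vegfc was at 41.9 CPM in the cells of either library, whereas Angpt1 had 3 UMIs among the 12 cells labelled WT and 31 UMIs among the 47 cells labelled KO, a ratio of 2.85 with an interval (0.889 to 14.6) that included 1.

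**Figure D2:**
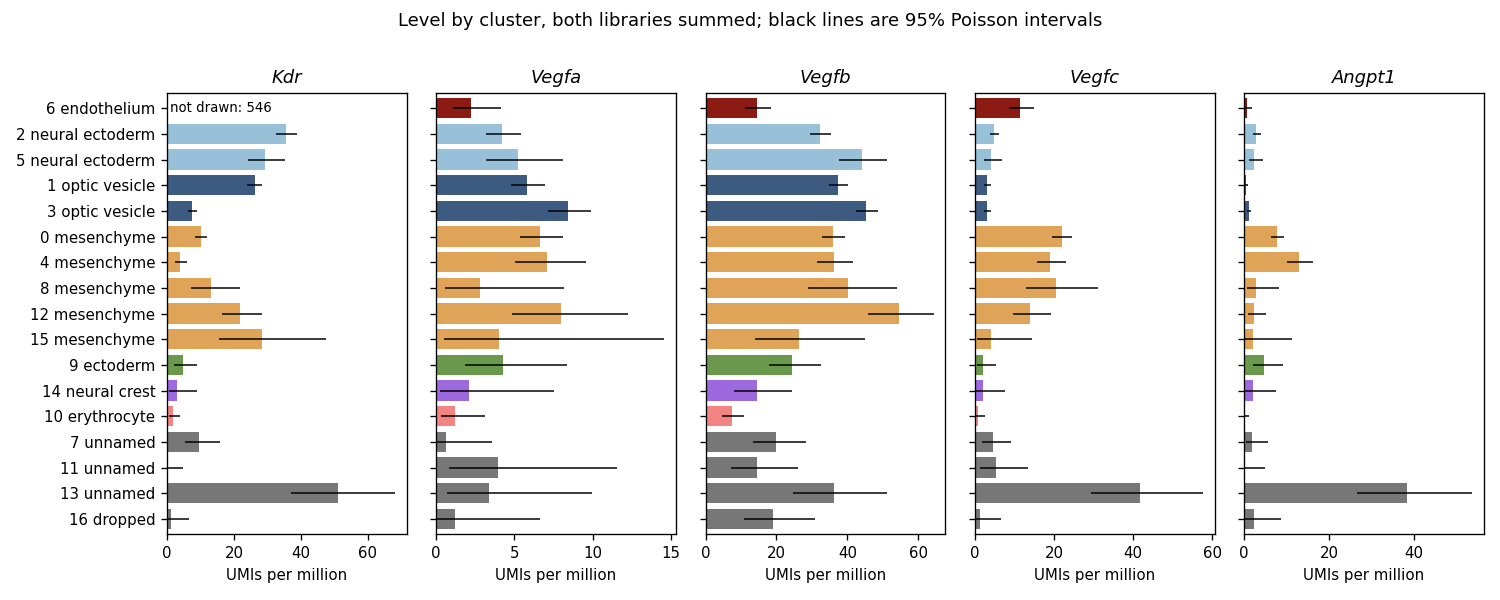
Level of Kdr and of 4 ligands in UMIs per 1000000 (x axes) for the 17 clusters (rows, with their class), both libraries summed; bars are levels and black lines 95% Poisson intervals, and the Kdr bar of the endothelium-like cluster, at 546 CPM, is not drawn. Cluster 13 has the highest Vegfc and Angpt1, and Kdr differs between the optic vesicle-like clusters 1 and 3.

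The receptors were concentrated in the endothelium-like cells. By the rule of size, 4-fold above all other cells of the library, 5 of the 10 genes passed in each library, and these were the 5 receptors. For comparison, 5.41% of 13408 genes (WT) and 5.48% of 13648 genes (KO) passed the same rule. Flt1 (ENSMUSG00000029648, chr5:147561604-147726011) was at 370 CPM (344 to 398, WT) and 330 CPM (308 to 353, KO) in endothelium-like cells. The other cells held 0.852 CPM and 0.781 CPM, a ratio of 435 (308 to 632) and 422 (306 to 598). Tek (ENSMUSG00000006386, chr4:94739289-94874976) was at 77.1 CPM (65.3 to 90.4) and 90.5 CPM (79.1 to 103), or 440 and 205 times the other cells. These ratios rested on 7 and 22 UMIs outside the class, and their intervals (208 to 1112 and 132 to 334) overlapped.

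Flt4 (ENSMUSG00000020357, chr11:49609263-49652739), which later in life marks lymphatic vessels, was at 157 CPM (140 to 175) and 152 CPM (137 to 168) in endothelium-like cells. Tie1 (ENSMUSG00000033191, chr4:118471191-118490061) was at 96.5 CPM (83.2 to 111) and 89.7 CPM (78.3 to 102). The endothelium-like cells held between 91.1% and 95.6% of all UMIs of Flt1, Flt4, Tek and Tie1 in each library. Outside the class these 4 genes were at no more than 1.11 CPM in the optic vesicle-like, neural ectoderm-like and mesenchyme-like classes, each taken whole. This lay under the 2.19 CPM (WT) and 1.58 CPM (KO) that a count of 0 allows in erythrocyte-like cells. That limit is 3 counts over the 1369994 (WT) and 1904490 (KO) UMIs of a much smaller class. Flt1 and Flt4 each had 1 UMI in the erythrocyte-like cells labelled KO, 0.525 CPM (0.0133 to 2.93). The limit therefore cannot show whether the levels were background. Mesenchyme-like cluster 12 labelled KO held 6 UMIs (3.99 CPM) of Flt1 and 6 UMIs (3.99 CPM) of Tek, against 1 and 0 UMIs labelled WT. The most Flt1 in 1 mesenchyme-like cell labelled KO was 6 UMIs. In ectoderm-like cells Flt1 had 3 UMIs (2.70 CPM, 0.557 to 7.89) and 5 UMIs (6.45 CPM, 2.10 to 15.1).

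**Figure D3:**
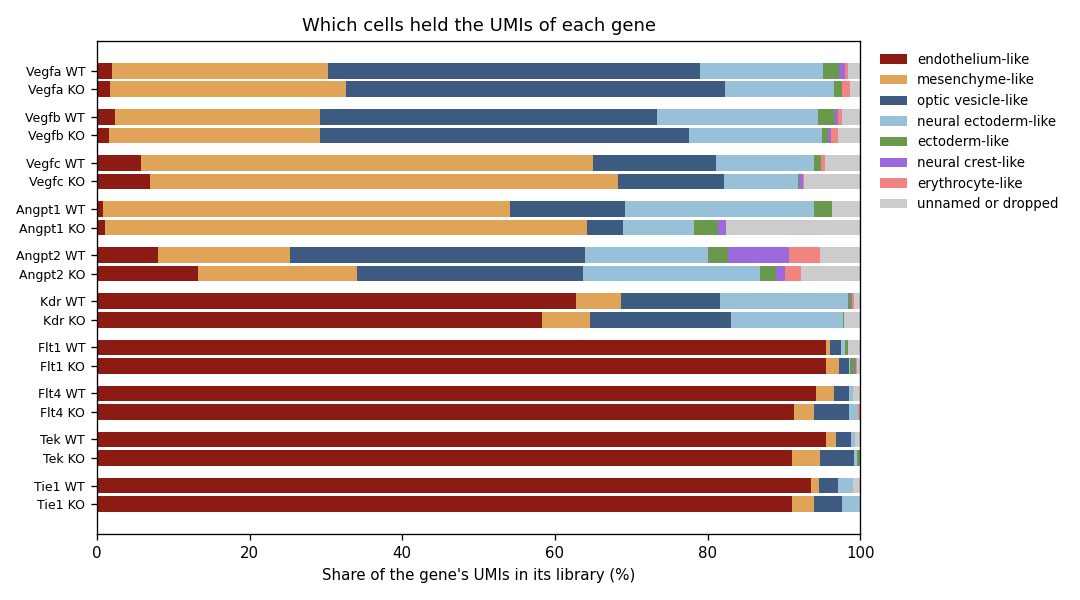
Share of each gene's UMIs in its library (x axis, percent) held by each cell class (colours), with 1 bar for each gene and library. The endothelium-like class holds over 91% of the UMIs of Flt1, Flt4, Tek and Tie1, but 62.7% (WT) and 58.3% (KO) of those of Kdr.

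Single endothelium-like cells carried several receptors at once. Cells labelled WT held from 2 to 85 UMIs of Kdr, with 13 as the median, and cells labelled KO from 0 to 54, with 10 as the median. Flt1 had medians of 9 and 6 UMIs and Flt4 a median of 3 in both libraries. Tek and Tie1 had medians of 2 UMIs in both. Every one of the 66 cells labelled WT had UMIs of Kdr and Flt1, and 3 of the 102 cells labelled KO lacked Kdr. After each cell was thinned to 6384 UMIs, at least 3 of the 5 receptors were detected in 27, 23 and 5 cells (3, 4 and 5 receptors) of the library labelled WT, and in 41, 33 and 6 cells of the library labelled KO. No receptor was detected in 0 and 3 cells.

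Kdr was the receptor with a wide presence outside the endothelium. Kdr (ENSMUSG00000062960, chr5:75932827-75978458) was at 585 CPM (552 to 620) and 514 CPM (487 to 543) in endothelium-like cells, 34.3 times (31.2 to 37.8) and 28.0 times (25.7 to 30.5) the other cells. Neural ectoderm-like cells held 306 UMIs or 35.0 CPM (31.2 to 39.2) and 324 UMIs or 33.7 CPM (30.1 to 37.5). Optic vesicle-like cells held 15.0 CPM (13.2 to 17.1) and 18.8 CPM (17.0 to 20.7), and mesenchyme-like cells 10.3 CPM in both libraries. In each library the intervals of these 4 classes were apart from each other, while those of mesenchyme-like, ectoderm-like, neural crest-like and erythrocyte-like cells overlapped along the order of levels. The neural ectoderm-like and optic vesicle-like classes shared markers. The 10 optic vesicle markers summed to 1202 and 1127 CPM in the former and 1587 and 1585 CPM in the latter. The 12 neural ectoderm markers summed to 307 and 309 CPM, against 152 and 127 CPM. The paper named no neural ectoderm cluster.

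The background check used the erythrocyte-like cells. There Kdr had 6 UMIs in 2 of 38 cells labelled WT, 4.38 CPM (1.61 to 9.53), of which 5 UMIs lay in 1 cell. It had 0 UMIs in the 52 cells labelled KO, which by the limit of 3 counts allows a level of up to 1.58 CPM and a share of up to 5.77% of cells (the exact 95% intervals reach 1.94 CPM and 6.85%). The share of neural ectoderm-like cells with a Kdr UMI was 39.2% (34.3 to 44.3) in the library labelled WT and 38.8% (34.3 to 43.5) in the library labelled KO, against 5.26% (0.644 to 17.7) of the erythrocyte-like cells labelled WT. Median depth was 20110 and 18532 UMIs in the neural ectoderm-like cells and 34642 and 33622 UMIs in the erythrocyte-like cells. At 6384 UMIs a cell the neural ectoderm-like shares were 17.1% (13.5 to 21.3) and 19.5% (15.98 to 23.5), and the erythrocyte-like shares were 2.63% (0.0666 to 13.8) for WT and 0 of 52 cells (0 to 6.85) for KO. At equal depth the intervals of the 2 classes thus overlapped in the library labelled WT and were apart in the library labelled KO, while those of the levels in CPM were apart in both. The 9 erythrocyte markers, globins among them, summed to 330370 CPM (WT) and 343200 CPM (KO) in the erythrocyte-like cells. Such a share lowers the CPM and the equal-depth share of other transcripts there. Wherever these cells served as background, they can therefore understate it.

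Other endothelial transcripts did not accompany Kdr in the neural ectoderm-like cells. For each 100 UMIs of Kdr, endothelium-like cells labelled WT held 63.3 UMIs of Flt1 and 81.1 UMIs of Cdh5, the cadherin of endothelial junctions. In neural ectoderm-like cells the same measures were 1.31 and 0.654 (WT), and 0.617 and 1.23 (KO). Optic vesicle-like cells held 4.64 UMIs of Flt1 and 2.95 UMIs of Cdh5 (WT), and 2.70 and 6.14 UMIs (KO), for each 100 UMIs of Kdr. The summed level of the 11 endothelial markers was 44.3 CPM (38.0 to 51.3) in neural ectoderm-like cells with a Kdr UMI and 46.0 CPM (40.1 to 52.6) in those without, in the library labelled WT. It was 51.3 CPM and 51.0 CPM in the library labelled KO, against 4184 and 4559 CPM in the endothelium-like cells. Mesenchyme-like cells labelled KO were different: those with a Kdr UMI held 86.2 CPM (73.3 to 101) of the endothelial markers and those without held 62.1 CPM (57.6 to 66.8). In mesenchyme-like cells labelled WT the order was turned, at 41.3 CPM and 58.5 CPM.

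Within the optic vesicle-like class Kdr followed the cluster. Cluster 1, with Aldh1a1, Fgf15 and Rax among its leading genes, held 510 UMIs or 26.2 CPM. Cluster 3, led by Pmel, Trpm1 and Dct, genes of the pigment lineage, held 134 UMIs or 7.48 CPM. With both libraries summed, as for Kdr here, Vegfa stood the other way round. It was at 5.80 CPM (4.78 to 6.97) in cluster 1 and 8.43 CPM (7.14 to 9.89) in cluster 3. Vegfb was at 37.5 CPM and 45.4 CPM in these sums. By library, Vegfa was at 7.16 and 8.10 CPM in clusters 1 and 3 (50 and 71 UMIs, WT). It was at 5.04 and 8.75 CPM (63 and 80 UMIs, KO), so most of its difference lay in the library labelled KO. Vegfb was at 44.2 and 44.4 CPM (WT) and at 33.7 and 46.4 CPM (KO), so its difference lay in the library labelled KO. Cluster 1 was 44.9% of the optic vesicle-like cells labelled WT and 58.5% of those labelled KO, so different clusters held most of the class in the 2 libraries.

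Endothelium-like cells were next placed in 3 equal groups by the share of arterial genes among their UMIs of 9 arterial and 5 venous genes, a division chosen after values of these data had been seen. The cuts lay at 8.33% and 20.8% (WT) and at 4.76% and 15.8% (KO), and 37 of 66 cells and 74 of 102 cells lay within 5 points of a cut, so the groups are ranges and not cell types. Median depth was 19922 UMIs in the venous group and 30569 UMIs in the arterial group of the library labelled WT. It was 21321 and 17648 UMIs in the library labelled KO, the opposite order. The sort itself sets apart the genes it used, but not all equally. Labelled WT, Emcn (410 and 394 CPM, venous and arterial group) and Ephb4 (86.3 and 73.9 CPM) had overlapping intervals. The other venous genes there, and all 5 in the library labelled KO, were higher in the venous group with intervals apart. Of the arterial genes, Gja5, Hey2, Cxcr4 and Bmx had at most 4 UMIs in the arterial group of either library.

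Tek was lower in the arterial group of both libraries. It was at 108 CPM (81.3 to 140) in the venous group and 52.0 CPM (36.8 to 71.4) in the arterial group of the library labelled WT, a ratio of 0.482 (0.310 to 0.742). In the library labelled KO it was at 118 CPM (95.3 to 144) and 57.1 CPM (41.5 to 76.7), a ratio of 0.485 (0.331 to 0.700). The intervals did not overlap in either library, and the ratios stayed below 1, between 0.462 and 0.717, with 2 equal groups, with thinned cells and without the group of 21 cells. Flt4 stood at 0.594 (0.429 to 0.819) and 0.703 (0.530 to 0.928) of its venous level, but with thinned cells the ratio in the library labelled WT was 1.39.

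Vegfc stood the other way. It had 1 UMI in the venous group and 15 UMIs (20.5 CPM) in the arterial group of the library labelled WT, a ratio of 10.5 (1.61 to 441), and 5 UMIs (6.20 CPM) and 20 UMIs (26.0 CPM) in the library labelled KO, a ratio of 4.19 (1.52 to 14.3). Of the 15 UMIs, 5 lay in 1 cell. At equal depth Vegfc was found in 0 of 22 venous and 1 of 22 arterial group cells labelled WT. Among cells labelled KO it was found in 1 of 34 and 7 of 34. Flt1 was 1.45 times (1.22 to 1.73) as high in the arterial group of the library labelled KO and 1.11 times (0.923 to 1.33) in that of the library labelled WT. Kdr had ratios of 1.04 and 1.16, and Tie1 had ratios of 1.23 and 1.12, with intervals that included 1 for Tie1 in both libraries and for Kdr in the library labelled WT. With thinned cells the ratios in the library labelled WT were 0.778 for Flt1 and 0.714 for Tie1, and with 2 equal groups that of Flt1 in the library labelled KO was 1.16.

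**Figure D4:**
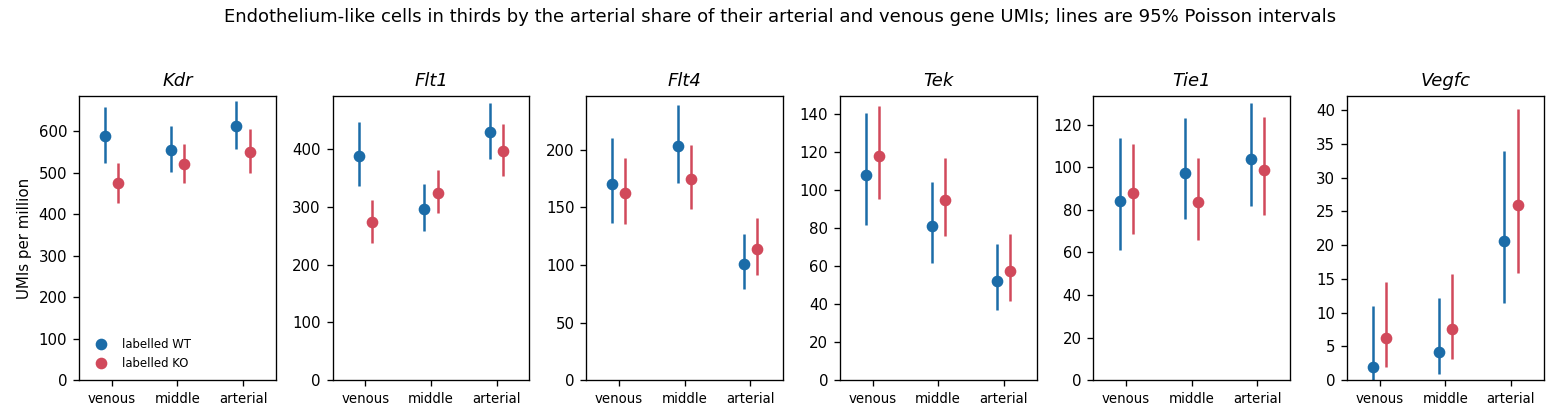
Level of the 5 receptors and Vegfc in UMIs per 1000000 (y axes, each from 0) in 3 equal groups of the endothelium-like cells ordered by arterial share (x axes), with blue points for the library labelled WT, red points for the library labelled KO and lines for 95% Poisson intervals. In the arterial group Tek is at 52.0 and 57.1 CPM and Vegfc at 20.5 and 26.0 CPM.

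The comparison of genotypes asked whether ligands or receptors stood at other levels in the Mab21l1-null eye region. Among endothelium-like cells 7 of the 10 genes had the 20 UMIs needed, and by the rule of size, 1.5-fold, 0 were higher and 1 was lower in the library labelled KO. Over all 9258 genes with 20 UMIs, 5.35% were 1.5-fold higher and 7.13% were 1.5-fold lower. The gene past the rule was Vegfb, with 37 UMIs (WT) and 28 UMIs (KO), a log2 ratio of -0.75 (-1.52 to -0.01). Without the group of 21 cells it was -0.58 (-1.41 to 0.25), no longer past the rule.

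The receptors of endothelium-like cells stood close to each other in the 2 libraries. Kdr had a log2 ratio of KO over WT of -0.19 (-0.30 to -0.07), and Flt1 of -0.17 (-0.31 to -0.02). Without the group of 21 cells, which held 751 CPM of Kdr and 513 CPM of Flt1 in its 20 cells labelled WT, these ratios were -0.09 (-0.21 to 0.04) and -0.04 (-0.20 to 0.12). With each cell thinned to the same depth the Kdr ratio was 0.07. Flt4 was at -0.04 (-0.26 to 0.18), Tie1 at -0.11 (-0.39 to 0.18) and Tek at 0.23 (-0.07 to 0.54). For these 5 receptors the counting intervals left out a 1.5-fold difference in either direction with all endothelium-like cells. Without the group of 21 cells Tek was at 0.28 (-0.05 to 0.61), an interval that reached 1.53-fold. Variation between embryos could not be measured.

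**Figure D5:**
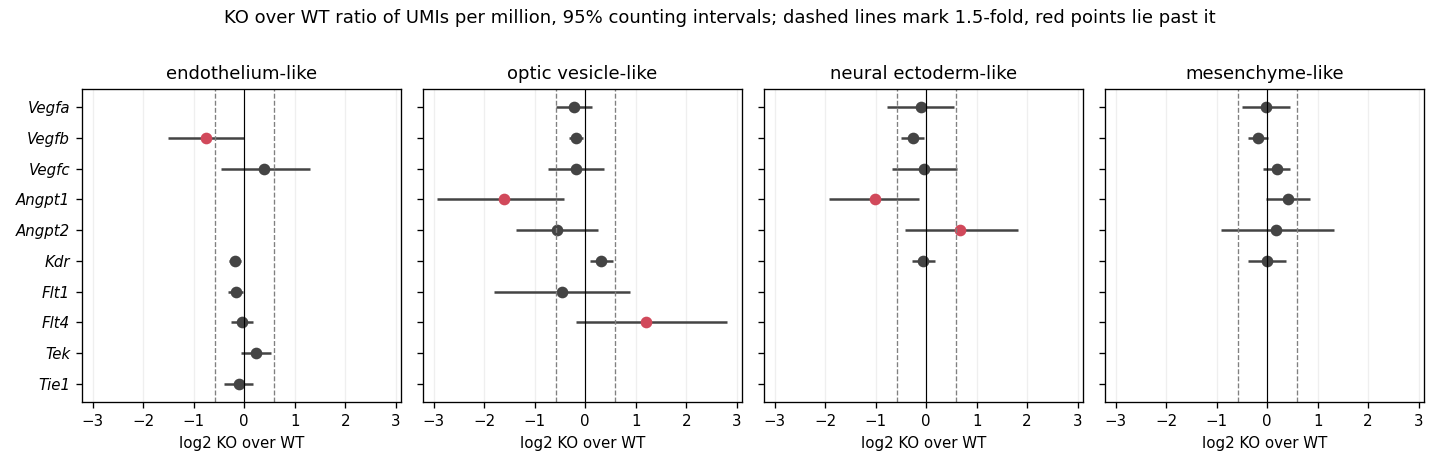
Ratio of KO over WT of UMIs per 1000000 (x axes, log2) for each gene with at least 20 UMIs in the class, in 4 cell classes; lines are 95% counting intervals, dashed lines mark 1.5-fold and red points lie past it. The endothelium-like receptors lie between -0.19 and 0.23, and Angpt1 lies at -1.61 and -1.02 in the optic vesicle-like and neural ectoderm-like classes.

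Outside the endothelium Angpt1 stood apart by class. In neural ectoderm-like cells it had 33 UMIs, 3.78 CPM (2.60 to 5.31), in the library labelled WT and 18 UMIs, 1.87 CPM (1.11 to 2.95), in the library labelled KO, a log2 ratio of -1.02 (-1.93 to -0.14). Cluster 2 alone gave -0.98 (-1.95 to -0.04). In optic vesicle-like cells it had 20 UMIs in 15 cells (WT) and 9 UMIs in 7 cells (KO), a log2 ratio of -1.61 (-2.93 to -0.41). These levels of 1.27 CPM and 0.416 CPM lie under the 2.19 CPM and 1.58 CPM that a count of 0 allows in erythrocyte-like cells. That limit comes from a much smaller class and cannot show whether the levels were background. Cluster 3 alone, with 13 and 7 of the Angpt1 UMIs, gave -0.95 (-2.52 to 0.48). In mesenchyme-like cells it stood the other way, with 71 and 122 UMIs and a log2 ratio of 0.41 (-0.02 to 0.86), not past 1.5-fold. Cluster 0 alone gave 0.05 (-0.52 to 0.62) and cluster 4, the mesenchyme-like cluster with most Angpt1 and a larger share of the cells labelled KO, gave 0.54 (-0.31 to 1.5). The difference between the classes was not tested.

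Few other members passed the rule. In neural ectoderm-like cells 6 genes were measured, of which 1 was higher (Angpt2, 12 and 21 UMIs, log2 ratio 0.67 with an interval of -0.42 to 1.82) and 1 lower (Angpt1), with 3.33% and 4.30% of all genes past the rule in these directions. In cluster 2 alone Angpt2 was at 0.43 (-0.88 to 1.86) and did not pass. In optic vesicle-like cells 8 were measured, of which 1 was higher (Flt4, 6 and 19 UMIs, log2 ratio 1.2 with an interval of -0.18 to 2.82) and 1 lower (Angpt1), against 3.42% and 2.32% of all genes. The Flt4 levels, 0.381 and 0.877 CPM, lay under what a count of 0 allows in erythrocyte-like cells, a limit set by the smaller size of that class. The erythrocyte-like cells labelled KO held 1 UMI of Flt4, 0.525 CPM (0.0133 to 2.93), an interval that includes the optic vesicle-like level. Other endothelial transcripts also had more UMIs in the optic vesicle-like cells labelled KO, with 7 and 25 UMIs of Cdh5 (11 of the 25 in 1 cell), 5 and 13 of Pecam1 and 3 and 11 of Tek, and the 11 endothelial markers summed to 44.3 and 53.2 CPM. Their part in the Flt4 ratio was not tested. In mesenchyme-like cells 0 of 6 passed, against 3.45% higher and 3.30% lower over all genes. Surface ectoderm gives rise to the lens, and ectoderm-like cells had 1 measured gene, Vegfb, at 34 UMIs or 30.6 CPM (WT) and 12 UMIs or 15.5 CPM (KO), a log2 ratio of -0.98 (-2.07 to 0.00), where 7.75% of all genes were 1.5-fold higher and 10.5% were 1.5-fold lower. Neural crest-like cells had 0 measured members, against 14.6% of all genes higher and 7.98% lower, and erythrocyte-like cells had 1, Vegfb, which did not pass, against 6.44% higher and 8.80% lower. Vegfb also stood lower in the library labelled KO over all kept cells, at 37.7 CPM and 33.4 CPM, a log2 ratio of -0.18 (-0.27 to -0.08).

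Kdr in optic vesicle-like cells had a log2 ratio of 0.32 (0.09 to 0.56). By cluster it was 0.16 (-0.11 to 0.43) in cluster 1 and -0.06 (-0.57 to 0.45) in cluster 3, beside the different shares of the 2 clusters in the libraries given above. In neural ectoderm-like cells the Kdr ratio was -0.06 (-0.29 to 0.17), and in mesenchyme-like cells 108 and 139 UMIs gave 10.3 CPM in both libraries. Within that class Kdr ran from 3.96 CPM in cluster 4 to 28.3 CPM (14 UMIs) in cluster 15, both libraries summed. Its log2 ratio was 0.003 in cluster 0, -0.08 in cluster 4 and 0.23 in cluster 12, with intervals that included 0. Cluster 15, a set of 53 cells led by Etv2, Crym and Crabp1, held 1 UMI (WT) and 13 UMIs (KO). Its median depth was 8682 UMIs, and 4 of the 11 mesenchyme markers stood 2-fold above the other cells there. The part of the different cluster shares in the class value was not tested.

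Other genes of the pathway were taken from a list of 19 genes present in the files: further ligands, coreceptors, signalling proteins and tip cell genes. In endothelium-like cells 12 had 20 UMIs, of which 2 were higher, 1 was lower and 9 were neither in the library labelled KO, against 5.35% and 7.13% of all genes, with a median log2 ratio of -0.11 beside 0.00 for all genes. Apln, a ligand made by tip cells that lead new sprouts, had 16 UMIs or 8.17 CPM (WT) and 64 UMIs or 25.6 CPM (KO), a ratio of 3.14 (1.79 to 5.81). It was found in 15.2% (7.51 to 26.1) of the cells labelled WT and 30.4% (21.7 to 40.3) of those labelled KO, and at equal depth in 1 of 66 and 14 of 102 cells. Without the group of 21 cells the ratio was 3.43 (1.84 to 6.99). Esm1, another tip cell gene, had 21 and 47 UMIs, a ratio of 1.76 (1.03 to 3.09), but 23 of the 47 UMIs lay in 1 cell and the shares of cells were 12.1% and 10.8%. Unc5b, a netrin receptor of sprouting vessels, was lower, with 115 and 90 UMIs and a ratio of 0.614 (0.461 to 0.816). It was found in 42.4% (30.3 to 55.2) and 28.4% (19.9 to 38.2) of cells, with overlapping intervals. At equal depth it was found in 14 of 66 and 18 of 102 cells. Of the 90 UMIs labelled KO, 20 lay in 1 cell.

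The coreceptors showed no ratio past the rule. Nrp1 was at 211 CPM (WT) and 183 CPM (KO), Nrp2 at 144 and 174 CPM, and Aplnr, the receptor for Apln, at 294 and 303 CPM in endothelium-like cells. In mesenchyme-like cells Pgf, which binds Flt1, had 41 and 87 UMIs, a ratio of 1.64 (1.12 to 2.44), and Figf, the gene for VEGF-D, had 15 and 31 UMIs, a ratio of 1.60 (0.839 to 3.19). Adamts3, a protease that activates Vegfc, had 18 and 37 UMIs there, a ratio of 1.59 (0.884 to 2.97). These 3 of 10 measured genes were higher and 0 were lower, against 3.45% and 3.30% of all genes. The clusters of the mesenchyme-like class had different shares in the libraries, as given above, and their part in these ratios was not tested. In neural ectoderm-like cells 3 of 9 were higher (Plxnd1, Adamts3 and Shb, each with at most 25 UMIs in a library) and Unc5b was lower, with 220 and 151 UMIs and a ratio of 0.623 (0.503 to 0.769), against 3.33% and 4.30% of all genes. In optic vesicle-like cells 1 of 10 was higher (Dok2, 9 and 20 UMIs) and 0 were lower, against 3.42% and 2.32% of all genes, and in ectoderm-like cells 1 of 3 was higher (Pgf, 10 and 13 UMIs) and 1 was lower (Plcg1, 46 and 21 UMIs), against 7.75% and 10.5%.

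Vegfa is a known target of the hypoxia response, and 12 genes of that response were listed. All 12 were measured in endothelium-like cells, of which 1 was higher (Adm, the peptide adrenomedullin, 9 and 32 UMIs, ratio 2.79 with an interval of 1.30 to 6.64) and 1 was lower (Bnip3, 31 and 25 UMIs, ratio 0.633 with an interval of 0.358 to 1.11). Over all genes 5.35% were higher and 7.13% lower. Of the 32 Adm UMIs, 12 lay in 1 cell. In optic vesicle-like, neural ectoderm-like and mesenchyme-like cells 0 of 10 passed in either direction. Over all genes between 2.32% and 4.30% passed in each direction in these classes, so a count of 0 was near that share. The median log2 ratio of the list in endothelium-like cells was -0.07. In ectoderm-like cells 2 of 10 were lower, Slc2a1, a glucose transporter, with 130 and 56 UMIs and Bnip3 with 73 and 31 UMIs, against 10.5% of all genes. In neural crest-like cells 1 of 3 was lower (Bnip3), against 7.98% of all genes, and in erythrocyte-like cells 1 of 7 was higher (Pdk1), against 6.44%. Of the arterial list, 5 of 9 were measured in endothelium-like cells: 0 were higher and 1 was lower, against 5.35% and 7.13% of all genes. The lower gene was Gja4, a connexin of arteries, at 115 CPM (WT) and 62.1 CPM (KO), a ratio of 0.540 (0.437 to 0.666). It was found in 19 of 66 cells (28.79%, 18.3 to 41.25) and 20 of 102 cells (19.61%, 12.41 to 28.65), with overlapping intervals. Of its UMIs, 51 of 225 (WT) and 32 of 155 (KO) lay in 1 cell. The median log2 ratio of the arterial genes was -0.46. Of the 5 venous genes, which include Nrp2 and Aplnr of the pathway list, 0 passed, against 5.35% higher and 7.13% lower over all genes. Their median log2 ratio was 0.04.

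Over the 7 classes of both libraries (14 points, which share library and depth), the genes whose levels went most closely with each receptor, by Pearson correlation of log2(CPM + 1), were endothelial genes for Tek (Icam2, r = 0.996), Tie1 (Stab1, r = 0.999) and Flt4 (Stab1, r = 0.997). Flt1 went most closely with Sncg (r = 0.981). Kdr had other neighbours, Hid1 (r = 0.952), Car8 (r = 0.933) and Mfng (r = 0.922). Vegfc went most closely with Marveld1 (r = 0.949), Angpt1 with Serp1 (r = 0.900), Vegfa with Zfp689 (r = 0.940), Vegfb with Ppie (r = 0.954) and Angpt2 with Fcgr3 (r = 0.900). Fcgr3 is a marker of the small macrophage cluster, which is not among these points. The 7 macrophage markers summed to no more than 8.86 CPM in any named class, and Angpt2 was also low there. Its r therefore rests on 2 genes of low counts. These correlations are descriptions of 14 points and carry no test. Icam2 is also 1 of the 11 markers that named the endothelium-like class. Where a gene lies almost wholly in that class, its endothelium-like points in the 2 libraries largely set the correlation.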

How the data were processed

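The deposited files hold raw UMI counts of each gene and cell barcode, made by the authors with Cell Ranger on mm10/GRCm38 (submitters' processing notes). Counts depend on reads near the 3' end of a transcript, so levels were compared within a gene and not between genes. After the study's methods, genes seen in at least 3 cells were used, and a cell passed with 1500 to 8000 genes. The mitochondrial limit used here was 5% of a cell's UMIs; the methods print it as 0.05 with a percent sign, which was read as a fraction. Kept cells had between 6384 and 96705 UMIs, with medians of 21037 (WT) and 18135 (KO). Cells were clustered with Seurat 5.3.0 in R 4.3.3 (573 variable genes, 40 principal components, cell cycle regressed, resolution 0.6), leaving out the 10 genes and the lists. A cluster of at least 30 cells was named from at least 3 markers that stood 2-fold above the other cells, thresholds set after earlier results, and left unnamed where markers of another type led it. This left 1 cluster of 25 cells out, and 3 clusters without a name. Scrublet, run through scanpy 1.11.5, marked 4 (WT) and 7 (KO) cells as doublets, which were kept in the main values and left out as an alternative.

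UMIs were summed over the cells of a class and given as counts per 1000000 UMIs of the class (CPM) with exact Poisson intervals. Shares of cells have exact binomial (Clopper-Pearson) intervals, and ratios the exact conditional interval of 2 Poisson sums. A class ratio was given for genes with at least 20 UMIs in the class. Named were all 10 genes, the genes of the pathway, hypoxia, arterial and venous lists past the fold or with 20 UMIs, and the genes most alike in level among those with at least 100 UMIs. The ratios and their intervals were also run on simulated sums of the endothelium-like class only, with 200 changed genes. These sums were drawn with counting error alone, the model that the intervals assume. The simulation therefore cannot show how the intervals hold where UMIs gather in single cells. Alternatives were no mitochondrial limit, no cell cycle regression, clustering with the members kept in, other resolutions and components, doublets removed, other scalings including thinned cells, other UMI minimums and folds, and single clusters. The members and lists were chosen with earlier results of these data known. Gene positions are from GENCODE (GRCm38), and promoters from RefSeq (GRCm38.p6).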

Additional observations from a re-analysis of the deposited data

Results flagged for a closer look

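The Kdr ratio of KO over WT lay on opposite sides of 0 in 2 classes with intervals that left out 0, at 0.32 (log2) in optic vesicle-like cells and -0.19 in endothelium-like cells. The difference was not tested, and the values by cluster (0.16 and -0.06) and without the group of 21 mostly WT endothelium-like cells (-0.09) had intervals that included 0.

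The cluster of 25 cells with macrophage markers was in no comparison. It held 13 UMIs of Flt1, or 15.4 CPM, 16 UMIs of Vegfb, or 19.0 CPM, and 4 UMIs of Angpt2, or 4.75 CPM, each above the 3 UMIs that a count of 0 allows.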

How the results depend on the processing

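No paired analysis was possible because the labels give no replicate numbers and each genotype had 1 library. Of 324 alternatives for the KO over WT ratios, 308 stayed within the interval of the reported value, 16 did not and 0 reversed a ratio past 1.5-fold. Some of the 308 could hardly move. Resolutions 0.3 and 1.2, 20 components and clustering with the members kept in each gave 66 and 102 endothelium-like cells. There the log2 ratios of Kdr (-0.1853) and Vegfb (-0.7526) were the same as the main values. Of 90 for the endothelium-like levels over other cells, 88 stayed. Of 1240 values of levels 1194 stayed, and of 88 list counts 48 stayed within 1.5 times. Of 34 arterial over venous ratios 30 stayed, 3 moved and 1 reversed. Resolution 0.3 gave no optic vesicle-like class, and at resolution 1.2 Angpt1 there had 0 UMIs in the library labelled KO, so these have no ratio. The settings by cluster, without the group of 21 cells and for the arterial and venous groups were chosen after seeing the data. The cause of the changes was not tested.

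The log2 ratio of Vegfb in optic vesicle-like cells was -0.36 at resolution 1.2, -0.0085 with thinned cells, -0.39 in cluster 1 and 0.062 in cluster 3. That of Vegfc in mesenchyme-like cells was -0.28 in cluster 4, -0.24 in cluster 8 and 0.75 in cluster 12. With thinned cells Kdr in endothelium-like cells was 0.071, and the log2 ratios of endothelium-like over other cells in the library labelled WT were 4.90 for Kdr and 7.33 for Flt4. The arterial over venous ratio of Flt4 in that library was 1.39 with thinned cells. In endothelium-like cells the pathway genes higher in KO numbered 5 with at least 1 UMI and 1 with a 2-fold rule, and those lower numbered 4 with at least 1 UMI, 0 with a 2-fold rule and 2 without the group of 21 cells. Hypoxia genes higher numbered 0 with at least 50 UMIs and 2 without the group of 21 cells, and those lower 0 with a 2-fold rule.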
